A study of Mus musculus with 11 samples.

Results

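Enzymes of deoxynucleotide synthesis, encoded by Tyms, Rrm1, Rrm2, Rrm2b, Tk1, Dut, Dtymk, Dck and Shmt1, were followed in bulk RNA of the distal tibia (bone with its marrow) from mice with and without toxin in BM adipocytes. These 9 genes were taken by symbol from the table of read counts per gene, in which each has 1 entry among 22600 genes, and all 9 passed the filter on low counts that left 16496 genes to be tested. Control mice (4 libraries, genotype BMAd-WT in the labels) were compared with BMAd-DTA mice (7 libraries), with 1 library per mouse, all C57BL6/SJL, 24 weeks old and fed ad libitum without other treatment. BMAd-DTA mice carry a toxin gene (diphtheria toxin A, at Rosa26) behind a stop cassette. Cre, which removes the cassette, is made from the Adipoq locus only in cells that have expressed FLPo from the Osterix locus, which limits the toxin to BM adipocytes and a small subset of their lineage precursors. Per the study's methods, every mouse carried both Osterix-FLPo and the FLPo-dependent Adipoq-Cre, controls included. The labels do not give litter or sex. They give mouse numbers but no replicate numbers, so the replicate numbers used here follow the order of the deposited samples within each group.

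Deoxynucleotides are the building blocks of DNA, and cells make most of them shortly before and during S phase. Ribonucleotide reductase, a complex of a large subunit (Rrm1) and a small subunit (Rrm2, or in non-dividing cells and after DNA damage Rrm2b), reduces ribonucleotides to deoxynucleotides. Thymidylate needs a further branch, in which Dut cleaves dUTP to dUMP, Tyms methylates dUMP to dTMP with a folate carrier that Shmt1 helps to load, and Dtymk phosphorylates the product. Tk1 and Dck form the salvage arm, which phosphorylates thymidine and deoxycytidine taken up from outside the cell. In bone marrow these enzymes are known from the dividing precursors of blood cells. Whole bone RNA pools marrow, bone and attached tissue, so that fewer cells of a type and less RNA per cell cannot be told apart.

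Stretches of the promoters of Rrm1, Rrm2, Dtymk and Shmt1 are shown because all 4 hold motifs known from promoters of S phase genes, although Shmt1 differed in direction from the others. RefSeq promoter windows on GRCm38.p6, which run from 250 bases before to 50 bases after a transcription start, were matched for 8 of the 9 genes (not Rrm2b). The windows were searched on both strands for the CCAAT box, for E2F forms of 8 letters (TTTGGCGC, TTTCCCGC, TTTCGCGC and TTTGCCGC), for the same forms without their first T, and for the cell cycle element CHR (TTTGAA and TTCGAA). Each 7-letter form lies within its 8-letter form. Capitals mark the match, read 5′ to 3′ on the strand of the gene, so that a match on the other strand appears as its reverse complement.
Rrm1, 7-letter E2F form, chr7:102441618-102441645, plus strand: ggagaactcgTTCCCGCcaggtccgctt
Rrm1, CCAAT, chr7:102441639-102441666, plus strand: tccgctttcacCCAATgtggtggaaagg
Rrm2, CCAAT, chr12:24708193-24708220, plus strand: gtcagcggcgtCCAATgggaggcgaggc
Dtymk, 7-letter E2F form, chr1:93801989-93802016, minus strand: gttccgcgagTTGGCGCtcgctaaactg
Dtymk, CCAAT, chr1:93802030-93802057, minus strand: cagtccttaagATTGGtgctcttcggga
Shmt1, CCAAT, chr11:60811296-60811323, minus strand: tgctcccactgATTGGgccgctgtaggg

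CCAAT was found in 4 of the 8 windows (Rrm1, Rrm2, Dtymk and Shmt1) and in 37.4% of all 32851 promoter windows. No 8-letter E2F form was found in the 8 windows (2.26% of all windows), and a 7-letter form was found in 4 of them, again those of Rrm1, Rrm2, Dtymk and Shmt1 (9.57% of all windows). The 7-letter search was added after the 8-letter search had returned nothing. CHR was found in the Dck window alone (19.2% of all windows). The windows of Tyms, Tk1 and Dut held no match. Of the CCAAT matches shown, those of Rrm1, Rrm2 and Shmt1 begin at -45, -50 and -47 from the start and that of Dtymk at -112, counted along the gene. The start is that of RefSeq, whereas the gene spans given below are from GENCODE. The windows of Shmt1 and Dut lie wholly inside those spans. Rrm1 has a further CCAAT match at -91, which is not shown. The 7-letter E2F matches of Rrm2 (at -235) and Shmt1 (at 25) are not shown either.

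Total counts per library ran from 16969529 to 18637663 in controls and from 17128711 to 18432805 in BMAd-DTA mice. Values below are CPM (counts scaled to a common library size) with TMM factors applied, and errors are the SD between mice. All pairs of replicates differed by more than sampling noise (chi-square per gene of 18.3 or more, where noise gives about 1). Xist had 13810 to 20260 counts in every library and 4 Y-linked genes together had at most 1, the pattern of female mice, whereas the study's legend for this experiment gives male mice. Skeletal muscle markers summed to 14.5 to 1236 CPM in controls and 16 to 982 CPM in BMAd-DTA mice, and Control replicate 3 and BMAd-DTA replicate 6 were above 2 times the median of all libraries. Adipocyte markers were lower in BMAd-DTA mice (9 of 9 genes with a negative log2 fold change, 6 of them with an unadjusted p under 0.05, summed levels of 834 to 1644 CPM in controls and 370 to 1052 CPM in BMAd-DTA mice), and Retn passed the test. Adipoq, which drives Cre, was at 138 ± 79.9 CPM in controls and 56.7 ± 47.9 CPM in BMAd-DTA mice, so adipocyte RNA was still measured in the latter.

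As a group, the 9 genes were mostly lower in BMAd-DTA mice, by up to 1.32-fold, but none passed the test after adjustment over all genes. A negative log2 fold change was found for 7 of the 9, against 49.6% of all genes tested and 54% of the 9548 genes expressed at least as highly as the lowest member, and the median over the 9 was -0.24 against 0.0018 over all genes tested. With the quasi-likelihood test of edgeR (p adjusted by Benjamini-Hochberg), 0 of the 9 were under 0.05, where 0.0788% of all genes were (13 genes), and 0.00606% were lower in BMAd-DTA mice. Before adjustment, 5 of the 9 (Rrm2, Rrm1, Tyms, Dck and Tk1) were lower with a p under 0.05, against 8.53% of all genes and 11.8% of those 9548 genes, and 0 of the 9 were higher, against 7.89% of all genes. In DESeq2, which the study's methods name, Rrm2 and Rrm1 passed an adjusted p of 0.05, where it called 5.42% of its genes in either direction and 2.64% lower (412 genes), and in limma-voom none of the 9 did. Rrm2b and Shmt1 were the 2 members with a positive log2 fold change.

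**Figure D1:**
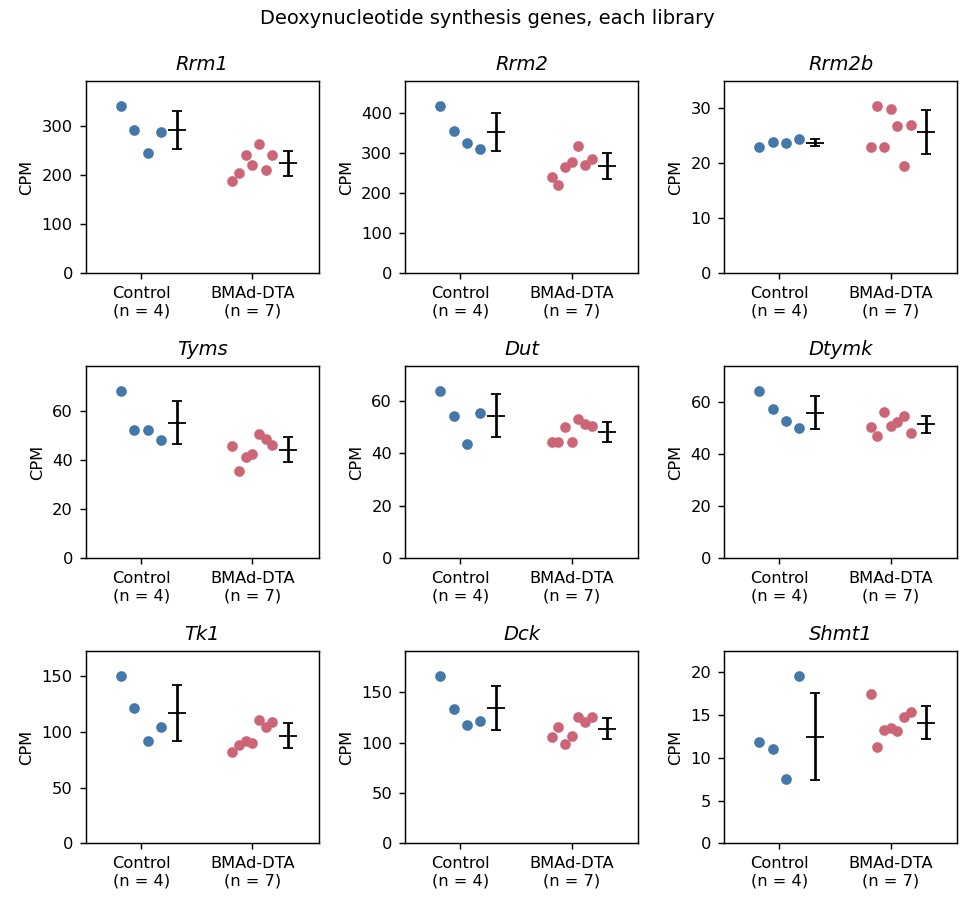
CPM (y axes, linear, starting at 0) of the 9 deoxynucleotide synthesis genes in each library, with 1 point per mouse and the mean and SD beside each group. Of the 7 BMAd-DTA libraries, 6 lie below every control for Rrm1 and Rrm2 and 5 for Tyms, while Rrm2b and Shmt1 overlap widely. At least 6 lie below every control for 3.81% of all genes and at least 3 for 23.6%.

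The small subunit gene Rrm2 (chromosome 12, 24708241 to 24714146 of GRCm38, plus strand) had the lowest log2 fold change of the 9. It was at 418, 355, 326 and 311 CPM in the 4 controls. In BMAd-DTA mice it ran from 219.9 to 318 CPM with a median of 269.6. The groups overlapped by a single library, since 6 of the 7 BMAd-DTA mice were below every control, as were at least 6 BMAd-DTA mice for 3.81% of all genes. The means were 352 ± 47.4 CPM in controls (SD, n = 4) and 268 ± 31.5 CPM in BMAd-DTA mice (SD, n = 7), a log2 fold change of -0.40 (standard error 0.10, 95% interval -0.61 to -0.18, adjusted p = 0.0906 in edgeR's test and 0.0109 in DESeq2).

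Rrm1, which encodes the large subunit that carries the catalytic site (chromosome 7, 102441695 to 102469771, plus strand), followed closely. Its levels in controls were 341, 292, 246 and 288 CPM. BMAd-DTA mice ran from 189 to 264 CPM with a median of 221. Here too 6 of the 7 were below every control, and the exception was BMAd-DTA replicate 5, which was also the highest BMAd-DTA library for Rrm2. The log2 fold change was -0.38 (standard error 0.10, 95% interval -0.60 to -0.16, adjusted p = 0.0984 in edgeR's test and 0.0163 in DESeq2), with means of 292 ± 38.9 CPM in controls (SD, n = 4) and 224 ± 25.9 CPM in BMAd-DTA mice (SD, n = 7). Without Control replicate 3, 1 of the muscle-rich libraries and the lowest control for Rrm1, the adjusted p of Rrm1 in edgeR's test was 0.0492. Leaving out that library raised the calls in general, to 292 of 16757 genes against 13 of 16496 with all mice. Over 23 alternative settings the adjusted p ran from 0.0163 to 1 for Rrm1 and from 0.0109 to 1 for Rrm2.

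Rrm2b, the small subunit gene that is a known p53 target and serves cells outside S phase (chromosome 15, 37923952 to 37961318, minus strand), did not share this direction. Controls were nearly alike at 22.9, 23.8, 23.7 and 24.4 CPM. BMAd-DTA mice spread from 19.5 to 30.4 CPM with a median of 26.7. In BMAd-DTA mice 4 libraries were above every control and 2 were below every control, so that the groups overlapped. Shares of such counts over all genes were not computed. The BMAd-DTA group had the wider spread in these libraries (coefficient of variation 15.6% against 2.69%). That of the controls rests on 4 libraries with 415, 404, 401 and 471 counts. It is narrower than sampling noise alone tends to give at such counts, and the difference in spread was not tested. The log2 fold change was 0.11 (standard error 0.11, 95% interval -0.13 to 0.36, adjusted p = 0.679 in edgeR's test). A processed pseudogene, Gm3362, lies within Rrm2b on the same strand over 466 bases, which could take some of its reads.

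The balance between the small subunits was examined as the ratio of Rrm2 to Rrm2b counts within each library, a quantity that does not depend on the scaling of libraries. The ratio was 18.2, 14.9, 13.7 and 12.7 in the 4 controls and ran from 7.23 to 13.8 in BMAd-DTA mice. Only BMAd-DTA replicate 6 lay among the controls, and the other 6 were below all of them. The mean ratio was 14.9 ± 2.41 in controls (SD, n = 4) and 10.7 ± 2.07 in BMAd-DTA mice (SD, n = 7). The difference in mean log2 ratio was -0.49 (exact two-sided permutation test over 330 splits, p = 0.0212, adjusted p = 0.0636 over 3 ratios), which did not pass 0.05 after adjustment. Without Control replicate 1 the unadjusted p was 0.0667 in the exact permutation test and the difference -0.39. The level of Rrm1 per kilobase of exon relative to the sum of both small subunits was 0.205 ± 0.0175 in controls and 0.205 ± 0.0135 in BMAd-DTA mice. The size of this value depends on the length used. It rests on all annotated exons together, 11012 bases for Rrm1, where the principal transcript has 3997.

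**Figure D2:**
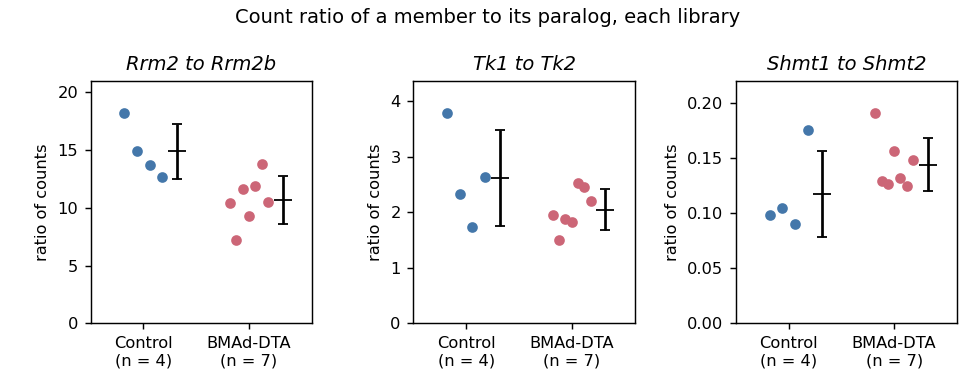
Ratio of counts (y axes, linear, starting at 0) of Rrm2 to Rrm2b, Tk1 to Tk2 and Shmt1 to Shmt2 in each library, with 1 point per mouse and the mean and SD beside each group. For Rrm2 to Rrm2b, 6 of the 7 BMAd-DTA libraries lie below the lowest control value of 12.7, and the other ratios overlap more.

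In the thymidylate branch, Tyms, the enzyme that makes dTMP (chromosome 5, 30058202 to 30073617, minus strand), was at 68.1, 52.3, 52.4 and 48.2 CPM in controls. It ran from 35.7 to 50.5 CPM in BMAd-DTA mice with a median of 45.7. In all, 5 of the 7 BMAd-DTA mice were below every control, and Control replicate 1 stood above the other controls. At least 3 BMAd-DTA mice were below every control for 23.6% of all genes and at least 6 for 3.81%. The share for at least 5, which lies between these, was not computed. The log2 fold change was -0.32 (standard error 0.11, 95% interval -0.55 to -0.089, adjusted p = 0.154 in edgeR's test). Tyms-ps, a processed pseudogene of Tyms on chromosome 10, could hold reads of near-identical sequence.

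The remaining enzymes of this branch differed less. Dut, the dUTPase that keeps uracil out of DNA (chromosome 2, 125247190 to 125258608, plus strand), was at 63.5, 54.2, 43.6 and 55.3 CPM in controls and at 44.1 to 52.9 CPM in BMAd-DTA mice (median 49.8). All BMAd-DTA values of Dut lay within the range of the controls (log2 fold change -0.17, standard error 0.094, adjusted p = 0.385 in edgeR's test). Dtymk, the thymidylate kinase that feeds both the de novo and the salvage route (chromosome 1, 93792576 to 93801934, minus strand), was at 64, 57.1, 52.5 and 49.9 CPM in controls and at 46.9 to 56.1 CPM in BMAd-DTA mice (median 50.6). In BMAd-DTA mice 2 of the 7 were below every control, a count without a computed share over all genes. The log2 fold change of Dtymk was -0.12 (standard error 0.077, adjusted p = 0.453 in edgeR's test).

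Shmt1, which charges folate with the carbon that Tyms uses (chromosome 11, 60788104 to 60811718, minus strand), was low and variable. Controls were at 11.8, 11, 7.5 and 19.5 CPM, and BMAd-DTA mice ran from 11.3 to 17.4 CPM with a median of 13.5. The highest and the lowest library were both controls, so that the range of the controls held every BMAd-DTA mouse (log2 fold change 0.17, standard error 0.20, 95% interval -0.27 to 0.61, adjusted p = 0.728 in edgeR's test). Without Control replicate 3, the lowest library, the log2 fold change was -0.00073, and without Control replicate 4, the highest, it was 0.48 (unadjusted p = 0.0123 and adjusted p = 0.167 in edgeR's test). The ratio of Shmt1 to its mitochondrial paralog Shmt2 was 0.117 ± 0.039 in controls (SD, n = 4) and 0.144 ± 0.024 in BMAd-DTA mice (SD, n = 7) (difference in mean log2 ratio 0.33, exact two-sided permutation test, p = 0.124, adjusted p = 0.186). Without Control replicate 4 this difference was 0.54 and the exact permutation p was 0.00833, the smallest that 3 against 7 mice allow. Shmt2 itself was at -0.088 (edgeR's adjusted p = 0.737).

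Both salvage kinases were lower, with more overlap between the groups. Tk1, the cytosolic thymidine kinase of dividing cells (chromosome 11, 117815526 to 117826092, minus strand), was at 149.7, 121, 91.6 and 105 CPM in controls and ran from 81.9 to 110.4 CPM in BMAd-DTA mice (median 91.6). At least 3 BMAd-DTA mice were below every control for 23.6% of all genes, and for Tk1 3 of the 7 were (log2 fold change -0.28, standard error 0.12, 95% interval -0.54 to -0.010, adjusted p = 0.284 in edgeR's test). Dck, the deoxycytidine kinase (chromosome 5, 88764996 to 88783281, plus strand), was at 166, 133, 117 and 121 CPM in controls and ran from 98.3 to 125 CPM in BMAd-DTA mice (median 115). For Dck, 4 of the 7 were below every control. The 23.6% is the share for at least 3, and that for at least 4, which cannot be larger, was not computed. The log2 fold change of Dck was -0.24 (standard error 0.098, 95% interval -0.45 to -0.027, adjusted p = 0.242 in edgeR's test). Tk2, the mitochondrial thymidine kinase, was at 46 ± 7.44 CPM in controls and 47.8 ± 5.85 CPM in BMAd-DTA mice. The ratio of Tk1 to Tk2 was 2.62 ± 0.86 in controls (SD, n = 4) and 2.05 ± 0.37 in BMAd-DTA mice (SD, n = 7) (difference in mean log2 ratio -0.32, exact two-sided permutation test, p = 0.188, adjusted p = 0.188). Without the 2 muscle-rich libraries the difference was -0.54 with an exact permutation p of 0.0238, and without Control replicate 1 it was -0.12 with an exact permutation p of 0.55. Gm20708 overlaps Tk1 on the opposite strand along its whole length, and of the reads on Tk1 20277 were counted on its own strand and 1683 on the other.

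Per kilobase of exon, Rrm2 was the most abundant of the 9 transcripts, with 127 ± 17.1 CPM per kb in controls and 96.7 ± 11.4 in BMAd-DTA mice, above every other member in all 11 libraries. Dck followed with 35.5 ± 5.83 CPM per kb in controls, then Rrm1 with 26.5 ± 3.53. Dut, Tk1 and Dtymk lay between 21.2 and 22.5 CPM per kb in controls and could not be ordered, since Dut was above Dtymk in 7 of 11 libraries and Dtymk above Tk1 in 6. Tyms was at 9.07 ± 1.44 CPM per kb, and Shmt1 and Rrm2b were lowest at 3.21 ± 1.3 and 2.59 ± 0.07. The order depends on the length used. With the length of the principal transcript in place of the union of all annotated exons, Rrm2 stayed first in 11 of 11 libraries, Tk1 (81.1 CPM per kb in controls) and Rrm1 (73) came next, and Shmt1 was below Rrm2b in 8 of 11 libraries.

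Among mice of the same group, 7 of the 9 genes varied together. With the group means removed, Pearson's r of log2 CPM over the 11 libraries lay between 0.41 and 0.90 for the 21 pairs among Tyms, Rrm1, Rrm2, Tk1, Dut, Dtymk and Dck (Spearman's rho 0.25 to 0.92). The highest r was between Tk1 and Dut. The 15 pairs that involve Rrm2b or Shmt1 ran from -0.55 to 0.44 (rho -0.62 to 0.25). These correlations are descriptions over libraries that share their scaling, and Control replicate 1 was the highest library for all 7 genes. Of 10358 other genes with a mean of at least 10 CPM, Rpa2, a subunit of the single-strand DNA binding protein RPA, was most like the mean profile of Tyms, Rrm1, Rrm2, Tk1, Dut and Dtymk (r = 0.98, rho = 0.98), followed by Ammecr1 (r = 0.97, rho = 0.92) and the replicative helicase subunit gene Mcm2 (r = 0.96, rho = 0.91). Dck was most like Gfi1b, an erythroid and megakaryocytic transcription factor (r = 0.95, rho = 0.90), Kif22 (r = 0.94, rho = 0.92) and Lrrc29 (r = 0.92, rho = 0.91). Rrm2b was most like Gm4759 (r = 0.92, rho = 0.94), Rhoq (r = 0.90, rho = 0.83) and Rasgrp1 (r = 0.89, rho = 0.95), and Shmt1 was most like Apaf1 (r = 0.91, rho = 0.95), Uba1 (r = 0.91, rho = 0.75) and Wdr36 (r = 0.91, rho = 0.70). All of these are the highest of 10358 values over 11 libraries, a choice that by itself favours a high r. Whether any exceeds what unrelated genes would reach was not tested.

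**Figure D3:**
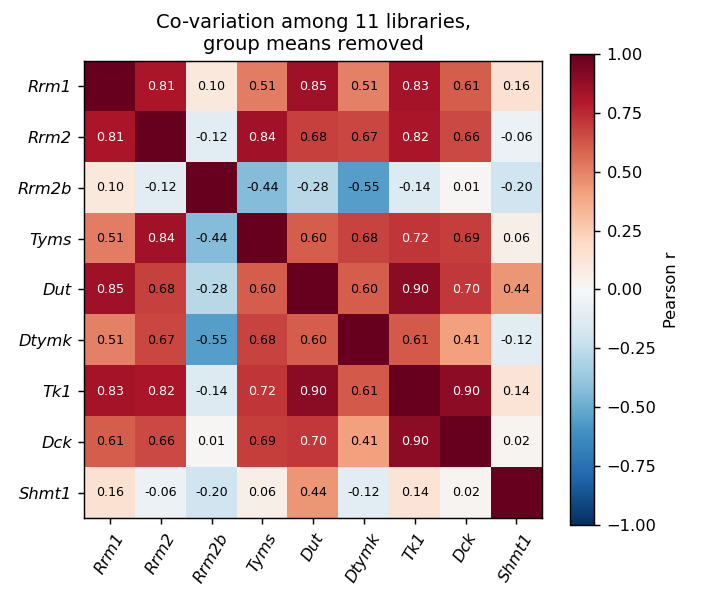
Pearson's r of log2 CPM between members over 11 libraries after the mean of each group was removed (colour scale from -1 to 1). The 7 genes other than Rrm2b and Shmt1 form a block with r of 0.41 or more, and off the diagonal the rows of Rrm2b and Shmt1 hold values of 0.44 or less.

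The members were then set beside 40 other S phase genes. All 40 had a negative log2 fold change (median -0.28, from -0.51 for the licensing gene Cdc6 to -0.050 for the helicase subunit gene Gins2), 0 passed in edgeR's test, 30 were lower with an unadjusted p under 0.05 and 14 were called lower by DESeq2. The mean log2 CPM of these 40 genes was 0.27 lower in BMAd-DTA mice. Relative to that mean within each library, Rrm2 and Rrm1 were a further 0.12 and 0.10 lower on the log2 scale, Tyms 0.040 lower, and Tk1 and Dck 0.014 and 0.044 higher. Dut and Dtymk were 0.11 and 0.15 higher, Rrm2b 0.37 and Shmt1 0.52, values given as a description without a test. Among proliferation markers, Mki67 was at -0.56 on the log2 scale (edgeR's adjusted p = 0.072), Top2a -0.42 (adjusted p = 0.072) and Pcna, the sliding clamp of replication and also one of the S phase genes above, -0.19 (adjusted p = 0.263).

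Lists of other genes of nucleotide metabolism had medians nearer to 0. In salvage and breakdown, 10 of 11 genes were tested, 0 passed in edgeR's test or in DESeq2, 0 had an unadjusted p under 0.05, and the median log2 fold change was 0.039, between -0.27 for Dctd and 0.28 for Nt5m. Samhd1, the hydrolase that breaks down deoxynucleotide triphosphates outside S phase, was at 452 ± 57.7 CPM in controls and 410 ± 24.7 CPM in BMAd-DTA mice (log2 fold change -0.14, with 0.408 as edgeR's adjusted p). Dguok, the mitochondrial deoxyguanosine kinase, had a log2 fold change of 0.024. Of the nucleotide kinases, 5 of 6 were tested (median 0.047). Cmpk2, a mitochondrial UMP and CMP kinase, was lower in every BMAd-DTA mouse than in every control, at 50.1 ± 6.57 against 70.3 ± 11.2 CPM, where 1.04% of all genes had such a separation (log2 fold change -0.49, with 0.072 as edgeR's adjusted p and 0.00413 in DESeq2). Nme1 had the largest log2 fold change of these kinases (0.17).

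All 12 folate cycle genes were tested, with 6 lower and 6 higher (median -0.042) and 0 called in edgeR's test or in DESeq2. In all, 3 were lower and 1 was higher with an unadjusted p under 0.05. The extremes were Mthfd1 (-0.42, adjusted p = 0.144) and Aldh1l2 (1.24, adjusted p = 0.152), the latter at 4.93 ± 2.58 CPM in controls and 11.6 ± 6.02 CPM in BMAd-DTA mice.

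Of the 13 genes of de novo purine synthesis, 11 had a negative log2 fold change (median -0.13), 0 passed in edgeR's test, 5 were lower and 1 was higher with an unadjusted p under 0.05, and DESeq2 called Gmps lower. The range was from -0.26 for Ppat, the enzyme of the committed step, to 0.24 for Impdh1. For de novo pyrimidine synthesis the median over 5 genes was -0.099, from -0.19 for Ctps to 0.18 for Dhodh, and for the 3 reductants of ribonucleotide reductase it was -0.026, from -0.083 for Txn1 to 0.034 for Txnrd1. In both lists 0 genes passed in edgeR's test or in DESeq2, and 1 gene (Dhodh, higher) had an unadjusted p under 0.05.

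**Figure D4:**
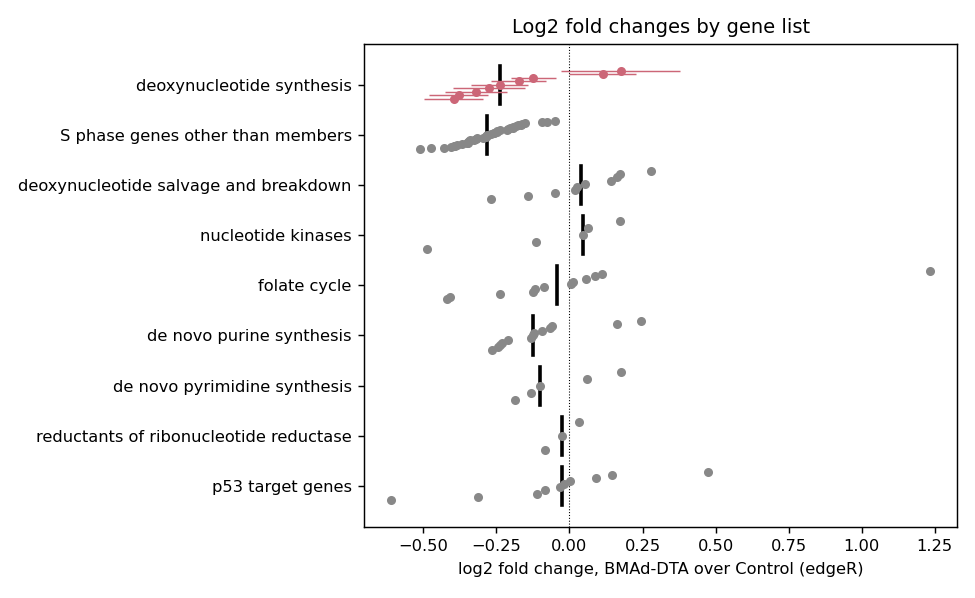
Log2 fold change (x axis, BMAd-DTA over Control, edgeR) of each tested gene in the 9 deoxynucleotide synthesis genes (red, with the standard error) and in the other lists (grey), with a black bar at each list's median. The deoxynucleotide synthesis genes (median -0.24) lie near the other S phase genes (median -0.28), and the other lists have medians between -0.13 and 0.047.

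Since Rrm2b is a p53 target, 10 other known p53 targets were examined. Their median log2 fold change was -0.026, with 6 lower and 4 higher, and 0 passed in edgeR's test. Cdkn1a, the inhibitor of cyclin-dependent kinases, was higher in every BMAd-DTA mouse than in every control (42.9 ± 4.3 against 30.9 ± 3.67 CPM, log2 fold change 0.47, with 0.0675 as edgeR's adjusted p and 0.00121 in DESeq2), a separation that 1.78% of all genes had. Mdm2 had a log2 fold change of -0.032, Ccng1 -0.11 and Eda2r, at under 1 CPM, -0.61. Sesn2 was lower with an unadjusted p under 0.05 (log2 fold change -0.31, adjusted p = 0.17).

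Markers of several cell types moved with the groups, and their part in the levels of the 9 genes was not tested. The 7 erythroid markers measured of 8 listed all had negative log2 fold changes (median -0.47, from -0.63 for Ermap to -0.22 for Alas2), with 0 passing in edgeR's test, 6 lower with an unadjusted p under 0.05 and 5 called by DESeq2. Their summed level was 3579 to 7127 CPM in controls and 3687 to 5693 CPM in BMAd-DTA mice, highest in Control replicate 1. Within groups, the r with this sum was 0.79 for Rrm2, 0.71 for Tyms and 0.64 for Dck (rho 0.82, 0.74 and 0.60), while it was 0.63 for Tk1, 0.61 for Dtymk, 0.50 for Rrm1, 0.35 for Dut, -0.032 for Rrm2b and -0.50 for Shmt1 (rho 0.62, 0.50, 0.51, 0.44, -0.073 and -0.35). An erythroid score was also used as a covariate, a setting chosen after the data were seen. The log2 fold change was then -0.17 for Rrm2 and -0.23 for Rrm1. It was -0.091 for Tyms, -0.058 for Dut, -0.037 for Dck, -0.015 for Tk1 and 0.0038 for Dtymk. Rrm2b was at 0.083 and Shmt1 at -0.045, and none of the 9 had an unadjusted p under 0.05 in edgeR's test. Osteoblast markers summed to 1703 to 7557 CPM in controls and 9489 to 20505 CPM in BMAd-DTA mice. The sums did not overlap, so that their level and the genotype cannot be told apart (7 of 7 genes higher with an unadjusted p under 0.05, median 1.16, and Alpl called). Most of the sum was Col1a1, at a mean of 4720 of 5585 CPM in controls and 12016 of 13813 CPM in BMAd-DTA mice. Col1a1, Sp7 and Alpl were separated between the groups, while Bglap, Bglap2, Ibsp and Dmp1 overlapped. Values for this sum therefore follow mainly Col1a1. Within groups, the r with the osteoblast sum was -0.84 for Tyms, -0.80 for Dck, -0.70 for Tk1, -0.67 for Rrm2, -0.60 for Dut, -0.51 for Rrm1, -0.49 for Dtymk, -0.21 for Shmt1 and 0.091 for Rrm2b (rho -0.82, -0.75, -0.64, -0.68, -0.56, -0.45, -0.31, -0.40 and -0.027). For Tyms, Dck, Tk1, Dut and Rrm1 it was larger in size than the r with the erythroid sum. Other cell type sums had an r of larger size than both for the members other than Tyms, Rrm2, Tk1 and Dck. With late neutrophils it was -0.67 for Dut and -0.64 for Rrm1, and with pro-B and pre-B cells -0.87 for Dtymk. With neutrophil precursors it was -0.59 for Rrm2b, and with T cells -0.68 for Shmt1.

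The remaining marker lists differed in direction. Over 5 markers of neutrophil precursors the median was 0.055 on the log2 scale (-0.031 for Ctsg to 0.10 for Mpo, summed levels of 2948 to 4318 CPM in controls and 2801 to 5125 CPM in BMAd-DTA mice). For late neutrophil markers it was -0.10 over 6 genes (-0.25 for Cxcr2 to 0.0088 for Retnlg, 8139 to 9740 and 6669 to 9095 CPM). All 6 markers of pro-B and pre-B cells (median 0.29, 0.17 for Rag1 to 0.66 for Cd79a, 172 to 434 and 295 to 751 CPM) and all 6 of T cells (median 0.43, 0.26 for Lck to 0.60 for Trbc2, 58.1 to 88.8 and 81.4 to 119 CPM) had positive values. In these 4 lists 0 genes passed in edgeR's test, while 0, 0, 1 and 4 were higher and none lower with an unadjusted p under 0.05, and DESeq2 called Trbc2 alone. The 1 gene of the pro-B and pre-B list was Cd79a, which is not limited to these stages. Cd79a also made up most of that sum, at a mean of 206 of 330 CPM in controls and 325 of 482 CPM in BMAd-DTA mice. Skeletal muscle markers had negative values in 9 of 9 genes tested (median -0.89, -1.76 for Myh1 to -0.22 for Myh2) with 0 genes under an unadjusted p of 0.05. Without the 2 muscle-rich libraries, Rrm2 (-0.43), Rrm1 (-0.43), Tyms (-0.36), Tk1 (-0.39), Dck (-0.31) and Dut (-0.27) were lower with an unadjusted p under 0.05, and 0 of the 9 passed after adjustment in edgeR's test.

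A single control weighed on most of these values. Control replicate 1 was the highest of all 11 libraries for the 7 co-varying genes, and it also had the highest erythroid and the lowest osteoblast marker sum. Without it, Rrm2 (log2 fold change -0.30, unadjusted p = 0.00949 in edgeR's test) and Rrm1 (-0.30, unadjusted p = 0.0121) were the 2 members still under 0.05 before adjustment. Tyms (-0.20), Tk1 (-0.13), Dck (-0.12), Dut (-0.087) and Dtymk (-0.052) moved by more than 1.5 times without it and kept their sign.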

How the data were processed

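Strand-specific mRNA libraries from whole distal tibiae were sequenced by the authors as paired-end reads, checked with FastQC 0.11.9 and aligned to mm10 with STAR at default parameters. Which annotation release was counted is not given in the sources used here. The authors deposited whole-number read counts per gene without normalization, as a merged table of 22600 genes, equal to the read-strand counts of the per-library files, which hold 1.46% more counts on other genes. Unmapped (9.1% to 15.1%), multimapping (6.68% to 9.07%), unassigned and ambiguous pairs stayed out of library sizes, so reads shared with pseudogenes are lost.

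The tests used edgeR 4.0.16 under R 4.3.3 (filterByExpr, TMM, glmQLFit and glmQLFTest, genotype as the only term, two-sided, Benjamini-Hochberg adjustment over 16496 genes, threshold 0.05). A standard error is the absolute log2 fold change over the root of its F value. DESeq2 1.42.0, limma-voom (limma 3.58.1), other scalings, filters, count columns and covariates, and each mouse left out in turn were alternatives. Log2 CPM used a prior count of 2 and ratios a pseudocount of 0.5. Gene identifiers were joined without version to GENCODE M21 on GRCm38 (99.9% matched). The steps were tested on simulated data. The p-values treat the mice as independent and set the difference between groups against the spread between these libraries. The labels do not say whether the mice shared litters, so this independence could not be checked.

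The members, lists and tests were chosen with earlier results of these data known. Text names all members and, of each other list, genes past the threshold, its extremes in log2 fold change (for osteoblasts and adipocytes only the called gene) and a few fixed in advance. Others, such as Gmps, Sesn2, Cmpk2 and Adipoq, were chosen after their values were seen. The most alike genes are the 3 with the highest r per profile. The values of 1 gene of the folate cycle list are not reported here.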

Additional observations from a re-analysis of the deposited data

How the results depend on the processing

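Over 23 alternative settings, Rrm1, Rrm2 and Rrm2b kept the sign of their log2 fold change. The number of members with an adjusted p under 0.05, 0 in edgeR's test, was 2 in DESeq2 and 0 to 1 with 1 mouse left out. The number lower with an unadjusted p under 0.05, 5 with all mice, was 2 to 6 with 1 mouse left out: 2 without Control replicate 1 and 3 without Control replicate 2 or BMAd-DTA replicate 1, 3 or 4. The number with a negative log2 fold change, 7 of 9, was 7 to 8 with 1 mouse left out. Of all genes, 13 were called by edgeR, against 845 by DESeq2, 20 by limma-voom, 20 with DESeq2's size factors, 3 with a skeletal muscle score as covariate, 1 without the 2 muscle-rich libraries and 0 to 292 with 1 mouse left out.

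Shmt1 ran from -0.00073 to 0.48 with 1 mouse left out and changed sign without Control replicate 3, without the muscle-rich libraries (-0.011) and with an erythroid score as covariate (-0.045). The erythroid and osteoblast scores as covariates were chosen after seeing the data. With the erythroid score, Dtymk was at 0.0038, 0 members were lower with an unadjusted p under 0.05 and 0 of all genes were called. With the osteoblast score, which separates the groups, Tyms (0.050), Tk1 (0.15), Dut (0.097), Dtymk (0.021) and Dck (0.099) changed sign, 2 members stayed negative, 0 were lower with an unadjusted p under 0.05 and 0 of all genes were called. The cause of these changes was not tested.

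The difference in log2 ratio ran, with 1 mouse left out, from -0.57 to -0.39 for Rrm2 to Rrm2b, from -0.50 to -0.12 for Tk1 to Tk2 and from 0.22 to 0.54 for Shmt1 to Shmt2. Without the muscle-rich libraries it was -0.54 for Tk1 to Tk2. No paired analysis was possible because the labels give no replicate numbers or litters that groups share. Shmt1, at 127 to 376 counts per library, was measured with the widest spread of the 9 in controls.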
